A study of Xenopus laevis with 18 samples.

Results

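RNA of the egg pellet was set against RNA of the egg cytosol in the frog Xenopus laevis, with 3 libraries of each among the 18 of the series. Members were taken by the fraction and stage in the labels. The egg pellet and egg cytosol libraries came from frog oocytes of stage VI, germ cells that have finished growing but not meiosis, whose follicle layers had been removed and which had been kept at 18 °C in medium with 2 µM progesterone, the steroid that starts meiotic maturation. Their labels give the cell type as mature egg and the stage as germinal vesicle breakdown (GVBD), the point at which the large oocyte nucleus dissolves. Side values come from the ER fraction of such eggs (3 libraries) and from the pellet and cytosol of stage VI oocytes kept in the same medium with no hormone (3 libraries each). Each library held 1 fraction of 4 pooled cells. The study's design text calls the replicates biological, but the sources used here do not give the frogs, their strain and age, or the cultures behind each replicate. The p-values therefore measure only the spread between samples, and part of that spread may be technical.

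As background, mRNAs for soluble proteins are translated on free ribosomes, while mRNAs for secreted and membrane proteins are carried to the ER by their nascent chains. Frog oocytes also anchor a set of mRNAs at their vegetal cortex, among them those of the germ plasm, a region rich in mitochondria and RNA granules that later marks the germ cells. A pellet collects what sediments, which in other preparations can include cortex, cytoskeleton, yolk, nuclei, large RNA granules and membrane pieces; the labels do not say which of these the pellet held here.

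The 6 libraries held 32989617 to 33823965 estimated counts in the egg pellet and 27708406 to 37358431 in the egg cytosol. Replicates correlated across transcripts at r = 0.9942 to 0.9952 in the egg pellet and 0.996 to 0.997 in the egg cytosol (log2 CPM, Pearson), and no pair agreed within sampling noise. Of 14 transcripts of oocyte and egg marker genes, 13 had at least 3 counts in all 6 libraries; the exception was bmp15.S, listed at 0 while its homeolog bmp15.L was present. Among 15 transcripts of blood and liver markers 6 were at 0 in all 6 libraries and only slc4a1.L, an anion exchanger, reached 3 counts in all of them. Levels below are TMM-normalised CPM, counts scaled to the size of each library, which are not corrected for transcript length.

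The pellet held far less RNA than the cytosol on the authors' spike-in scale. Their attomolar (aM) values summed to 15013, 8273 and 8767 aM in egg pellet replicates 1, 2 and 3, against 35355, 42533 and 41314 aM in egg cytosol. The means were 10684 ± 3757 aM for the pellet and 39734 ± 3841 aM for the cytosol (SD, n = 3), a ratio of 0.269, and the exact two-sided permutation p of 0.1 is the smallest that 3 against 3 allow. The groups did not overlap, and pellet replicate 1 stood apart from the other pellets. The authors' values for the 3 egg fractions of each replicate number sum to the same 70657 aM, so a high pellet goes with low values elsewhere under the same number. Pellet and cytosol sums were thus not free of each other, while the permutation test treated them as independent. Among 8870 abundant transcripts the median share of copies in the pellet was 18.9, 8.39 and 8.41% in replicates 1, 2 and 3, against 64.4, 72.0 and 70.7% in the cytosol, by the authors' deposited percentages.

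The make-up of the pellet was compared with that of the cytosol by edgeR's quasi-likelihood test, in which TMM scaling sets the typical transcript to no change. Of 25938 transcripts tested, 8919 (34.4%) were higher and 8414 (32.4%) lower in the egg pellet at a Benjamini-Hochberg adjusted p under 0.05. At least 2-fold differences were more frequent upward, with 4144 transcripts higher (16.0%) and 1466 lower (5.65%). The median log2 fold change over all tested transcripts was 0.03, with quartiles of -0.464 and 0.666. With spike-in scaling that median was -1.94, and 829 transcripts were higher and 22629 lower; on the authors' attomolar values it was -2.47, with 584 higher and 23707 lower. Every fold change below is therefore relative to the typical transcript, and a transcript or list that stands above it by less than these shifts was lower in the pellet on the spike-in scales. Without pellet replicate 1, which stood apart on the attomolar scale, 9037 transcripts were higher and 8051 lower.

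**Figure D1:**
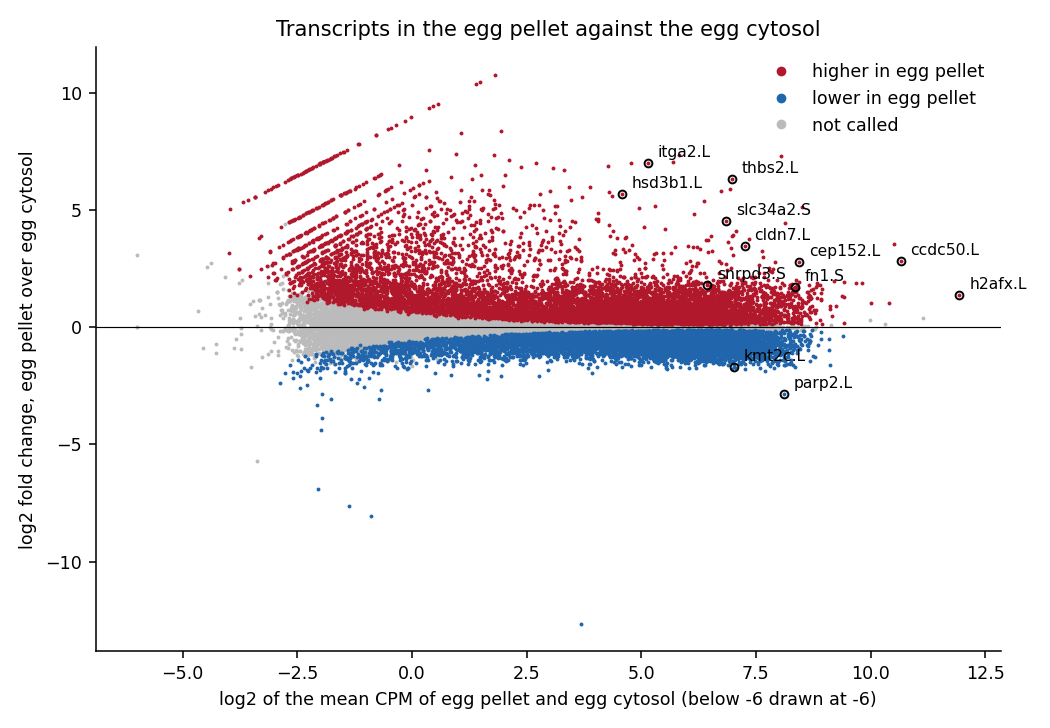
Each point is a transcript, with the log2 of its mean CPM in egg pellet and egg cytosol on the x axis and its edgeR log2 fold change, egg pellet over egg cytosol, on the y axis; red and blue mark the 8919 higher and 8414 lower transcripts and circles mark transcripts named in the text. Large differences lie mostly above 0, and parp2.L at -2.86 stands below the other abundant transcripts.

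The 10 abundant named transcripts with the highest fold changes fell mainly among mRNAs of membrane and lysosomal proteins and of the germ plasm. Of these, ctsv.L and ctsv.S encode cathepsin V, a lysosomal protease, and cldn6.1.L, cldn6.1.S and cldn7.L encode claudins, the membrane strands of tight junctions. The phosphate transporter slc34a2.S (gene4762, whose symbol a second model shares), the plasma selenoprotein selenop1.L and the phospholipase plcb3.L were there as well, beside ddx25.L, a germ plasm RNA helicase, and pgat.L, a germ plasm transcript. Their log2 fold changes ran from 3.37 ± 0.124 (SE) for pgat.L to 4.52 ± 0.302 for slc34a2.S. Being called and having no overlap between pellet and cytosol libraries were conditions of the choice. The largest edgeR adjusted p among the 10 was 5.0e-10.

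Cathepsin V mRNA was almost level between pellet libraries. It had 253, 255 and 259 CPM of ctsv.L in the egg pellet, against 17.0, 12.2 and 14.9 CPM in the egg cytosol, a log2 fold change of 4.11 ± 0.085 (SE; edgeR adjusted p = 2.7e-18). The lowest pellet library lay far above the highest cytosol library. The egg ER held 251, 247 and 273 CPM, and the log2 fold change of egg pellet over egg ER was -0.01, so the cytosol was the fraction that stood out. In oocytes ctsv.L had 178, 190 and 168 CPM in the pellet and 162, 163 and 161 CPM in the cytosol. The homeolog ctsv.S had 290, 305 and 313 CPM in the egg pellet and 22.5, 20.9 and 23.1 CPM in the egg cytosol (log2 fold change 3.77 ± 0.0893).

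Claudin mRNAs of cldn6.1.L and cldn7.L followed the same layout. Those of cldn6.1.L stood at 214, 239 and 260 CPM in the egg pellet, against 17.5, 12.3 and 17.6 CPM in the egg cytosol, with 155, 190 and 225 CPM in the egg ER. Those of cldn7.L stood at 260, 294 and 286 CPM in the egg pellet and 27.6, 21.4 and 26.5 CPM in the egg cytosol. The choice of these transcripts required that the groups do not overlap. Egg pellet over egg ER was only 0.32 and 0.52 on the log2 scale. The claudin cldn5.L differed, with mean levels of 60.5 CPM in the egg pellet, 13.4 CPM in the egg ER and 1.72 CPM in the egg cytosol. Its log2 fold change of egg pellet over egg ER was 2.18. Just outside the 10 highest were cldn6.2.L (3.33), cldn6.2.S (3.06) and both homeologs of the adhesion protein epcam (3.24 each), which were named after their values had been seen. Over all claudins, a list also made after values were seen, 7 of 14 tested transcripts were higher and 0 lower, with a median log2 fold change of 0.89 (25938 tested transcripts: 34.4% higher, median 0.03). Its uncalled members were transcripts such as those of cldn12 and cldn34.

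Lysosomal mRNAs were more often higher than lower. Of 70 tested transcripts of lysosomal enzymes and the proton pump V-ATPase, 43 were higher and 14 lower, with a median of 0.51. Over all tested transcripts 34.4% were higher and 32.4% lower. Cathepsin B, an abundant lysosomal protease, had 358 ± 11.5 CPM of ctsb.L in the egg pellet and 45.1 ± 3.38 CPM in the egg cytosol (SD, n = 3; log2 fold change 2.99), and ctsb.S was at 2.15. Prosaposin, the precursor of sphingolipid activators, had 166, 202 and 193 CPM of psap.S in the egg pellet, against 30.5, 24.0 and 29.4 CPM in the egg cytosol (log2 fold change 2.74). Among the 14 lower members were atp6v1a.S, the catalytic subunit of the proton pump (-0.88), and scarb2.L, a lysosomal membrane protein (-0.68). Of 15 cathepsin transcripts, 12 were higher and 0 lower, with a median of 1.97; this list was likewise made after values were seen.

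**Figure D2:**
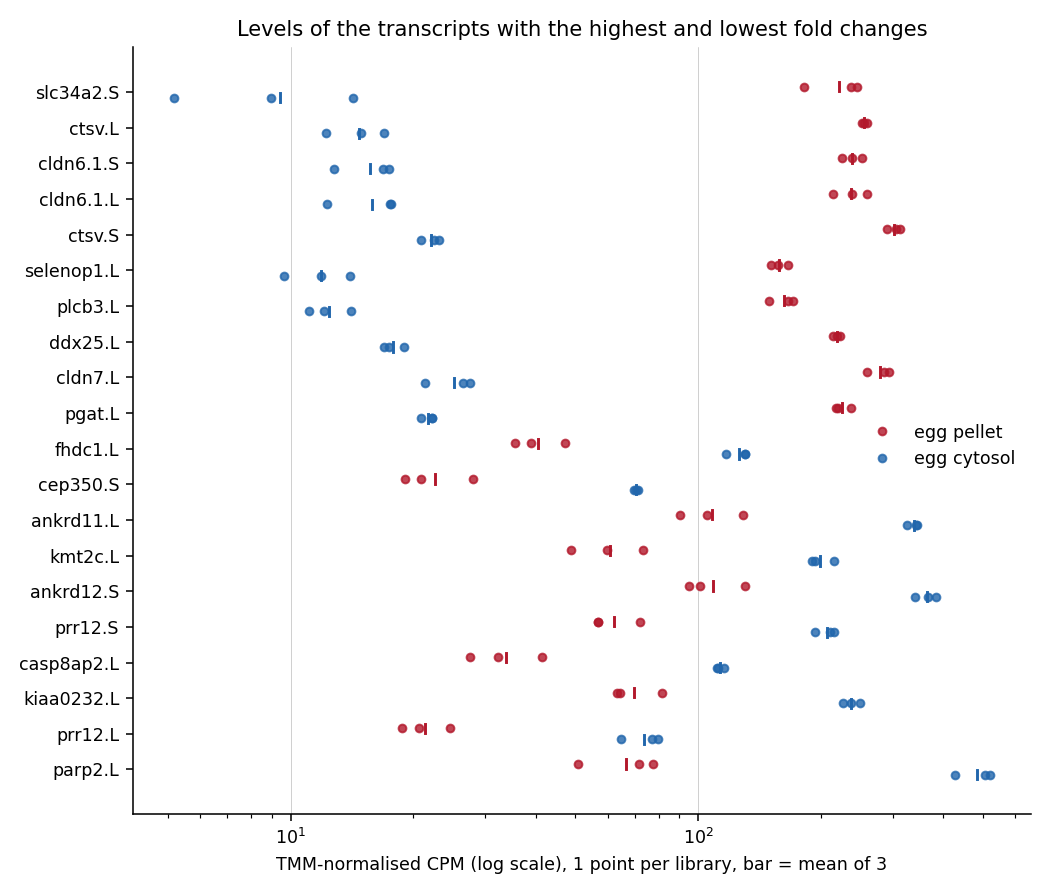
Levels of the 10 highest (upper) and 10 lowest (lower) transcripts of the named-transcript rule, in TMM-normalised CPM on a log axis; each point is a library, red for egg pellet and blue for egg cytosol, and the bar is the mean of 3. The 3 pellet and 3 cytosol points of every transcript are apart, as the rule required, and the cytosol points of slc34a2.S spread most widely.

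Lists of other secreted and membrane proteins held higher and lower members, set against 34.4% higher and 32.4% lower over all tested transcripts. Among 98 transcripts of secreted ligands and extracellular matrix proteins, 35 were higher and 22 lower (median 0.26), and among 158 of receptors and adhesion proteins, 53 were higher and 59 lower (median -0.07), so these lists lay near the shares over all transcripts. Solute carriers, the membrane transporters of small molecules, had 161 of 316 higher and 62 lower (median 0.33), and mRNAs of the ER translocon and folding machinery had 41 of 97 higher and 36 lower (median 0.05). Fibronectin, the main adhesive glycoprotein of the early embryo's matrix, had 490, 518 and 499 CPM of fn1.S in the egg pellet and 162, 151 and 152 CPM in the egg cytosol, and its log2 fold change was 1.70 ± 0.0675 (edgeR adjusted p = 1.8e-14). The unfolded-protein sensor kinase eif2ak3.S (PERK) had 292, 283 and 291 CPM in the egg pellet and 71.7, 60.8 and 64.6 CPM in the egg cytosol, at 2.13 ± 0.062. Libraries of the 2 fractions did not overlap for either mRNA. Also higher were ndc1.S, a membrane nucleoporin (2.26), ssr4.S, a subunit of the translocon-associated complex (2.73), the cadherin celsr2.L (1.63) and the Wnt receptor fzd7.L (1.48). Between egg pellet and egg ER the log2 fold changes of these 6 mRNAs were -0.38 to 0.85, pellet over ER. Lower in the egg pellet than in the egg cytosol were the receptors bmpr1a.S (-1.52) and fgfr3 (-1.26) and the matrix member lama5.L (-0.82). So were sec63.L of the translocon list (-0.77) and the solute carrier slc25a16.S (-0.88).

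Splicing factor and histone mRNAs had positive median log2 fold changes against both other egg fractions. So did further lists. Among these were follicle and theca cell markers (1.95 for pellet over ER), cytosolic ribosomal proteins (0.71) and vegetal and germ plasm RNAs (0.41). Against the cytosol, 34.4% of all tested transcripts were higher and 32.4% lower. Splicing factors and hnRNPs had 84 of 114 tested transcripts higher and 20 lower in the egg pellet than in the cytosol, with a median of 0.92; the median of the same transcripts was 0.86 for pellet over ER and 0.00 for ER over cytosol. These comparisons share libraries, so their values stand side by side and were not compared by a test. The snRNP core protein mRNA snrpd3.S had 133, 149 and 121 CPM in the egg pellet and 37.8, 44.8 and 34 CPM in the egg cytosol, with a log2 fold change of 1.79 ± 0.0931 (edgeR adjusted p = 1.1e-12). Likewise sf3b3.S, of the U2 snRNP, was at 1.54. Against the trend were snrnp200.L, the helicase that unwinds U4/U6 (-1.02), and prpf40b.S, a U1-associated factor (-1.31). Median transcript length was 3328 nucleotides in this list, close to the 3244 of all transcripts called higher. Of the lower members named, snrnp200.L has 13292 and prpf40b.S 6247. Of the higher ones, snrpd3.S has 1273 and sf3b3.S 8432.

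Histone mRNAs stood higher as a group, beside 34.4% higher and 32.4% lower over all tested transcripts. Of 31 tested transcripts on the list, 25 were higher and 1 lower, with a median of 1.42, and the exception was slbp.S (-0.69), which encodes not a histone but the stem-loop binding protein of histone mRNAs. The h2afx.L transcript gene13554 had the highest level per length in the egg pellet after the short model ccdc50.L, at 21100 TPM, against 10600 TPM in egg cytosol. It had 4930, 6740 and 5380 CPM in the egg pellet and 2160, 2170 and 2190 CPM in the egg cytosol, with no overlap (log2 fold change 1.39 ± 0.0972, edgeR adjusted p = 6.1e-11). A second transcript carries the same symbol, so reads may be split between them and the single value is uncertain. Linker histone H1 of oocytes, h1foo.S, was at 1.78 with 710 ± 86.4 CPM in the egg pellet and 207 ± 14.2 CPM in the egg cytosol (SD, n = 3). Histone H3 mRNAs hist2h3d.L and hist2h3c.L were at 1.74 and 1.05. Histones also were above the ER, with a median of 0.75 for egg pellet over egg ER.

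Of 90 tested transcripts of meiotic maturation and the cell cycle, 43 were higher and 34 lower (median 0.11), beside 34.4% higher and 32.4% lower over all tested transcripts. The B-type cyclins, activators of Cdk1 in meiosis and mitosis, were among the higher members: ccnb1.S had 425, 482 and 479 CPM in the egg pellet and 165, 137 and 184 CPM in the egg cytosol (log2 fold change 1.51 ± 0.112), ccnb1.L was at 1.36, ccnb2.L at 1.85 and ccnb5.L at 1.65. With them were cdc20.L, an activator of the anaphase-promoting complex (1.69), aurka.S, the spindle kinase Aurora A (1.39), and cdc7.L, a replication-origin kinase (1.77). The Mos kinase mRNA, translated during maturation, differed little (mos.L, 324 ± 5.34 CPM in the pellet and 290 ± 12.5 CPM in the cytosol). Its log2 fold change was 0.16 ± 0.0529 (edgeR adjusted p = 0.012), and it was not called without egg cytosol replicate 2 (0.12). Among the lower members were the checkpoint kinase bub1.L (-1.19) and anapc1.S, the largest subunit of the anaphase-promoting complex (-1.48).

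Centriole, kinetochore and chromosome structure mRNAs were more often lower, with 35 of 97 higher and 51 lower (median -0.18). The shares over all tested transcripts were 34.4% higher and 32.4% lower. A pair of centriole assembly mRNAs stood at the upper end. The centriole scaffold cep152.L had 537, 676 and 606 CPM in the egg pellet against 89.3, 85.6 and 89.0 CPM in the egg cytosol and 136, 181 and 179 CPM in the egg ER. Its log2 fold change over the cytosol was 2.78 ± 0.0993 (edgeR adjusted p = 3.1e-15), with no overlap. Another mRNA of procentriole formation, stil.L, had 424, 474 and 457 CPM in the egg pellet and 154, 122 and 150 CPM in the egg cytosol (1.67 ± 0.0927). The centromere protein cenpc.L (-1.57) and the condensin subunit ncapd3.L (-1.35) stood at the other end. The transcripts of cep152.L and stil.L have 10591 and 8558 nucleotides, above the upper quartile of length of transcripts called lower (8234.75).

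Vegetal and germ plasm mRNAs were mostly higher in the egg pellet, with 27 of 35 tested transcripts higher and 6 lower (median 1.26, median length 4580 nucleotides). Of all tested transcripts, 34.4% were higher and 32.4% lower. Members linked to germ plasm by their mRNA or their protein stood at both ends of the list. The helicase mRNA ddx25.L had 219, 214 and 223 CPM in the egg pellet, against 17.4, 17.0 and 19 CPM in the egg cytosol and 27.2, 43.8 and 43.8 CPM in the egg ER (log2 fold change over cytosol 3.62 ± 0.164, edgeR adjusted p = 1.7e-13). By the authors' deposited percentages its pellet share was 77.1, 50.8 and 51.8%, against 16.1, 29.0 and 28.1% in the cytosol. Only 4 of the 8870 abundant transcripts had over 50% of their recovered copies in the pellet in all 3 replicates (ddx25.L, slc34a2.S and 2 without a gene symbol), whereas 8133 had over 50% in the cytosol in all 3. Abundance was taken over both fractions here, which leaves out transcripts scarce in the cytosol: of the 9201 tested with a mean of at least 30 CPM in the egg pellet, a limit on the pellet alone, 29 had over 50% there in all 3. The germ plasm mRNA pgat.L had 218, 220 and 237 CPM in the egg pellet and 20.9, 22.2 and 22.2 CPM in the egg cytosol. Also higher were nanos1.L, a translational repressor needed for germ cells (2.89; 53.4, 54.8 and 54.9 CPM in the pellet, 7.24, 6.74 and 7.98 CPM in the cytosol), dazl.L, which encodes a translational regulator of germ cells (2.33), and grip2.L, a scaffold protein of germ plasm (2.11). No member named in this paragraph overlapped between fractions, as was the case on the higher side for 36.5% of all tested transcripts.

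Among vegetal mRNAs that pattern the embryo, the endoderm transcription factor vegt.L was at 1.83, trim36.L, a ubiquitin ligase of the vegetal cortex, at 1.69, and wnt11b.L, a dorsal axis ligand, at 1.26. The TGF-beta ligand gdf1.S (Vg1) is listed as 4 transcript models, whose log2 fold changes were 1.58 to 1.83; how reads were divided between them is uncertain. At the other end of the list, tdrd6.L, a Tudor protein of germ plasm granules, had 140, 132 and 125 CPM in the egg pellet and 221, 234 and 227 CPM in the egg cytosol (-0.78 ± 0.0608, edgeR adjusted p = 2.9e-10). Also velo1.L, whose protein builds the Balbiani body of young frog oocytes, was lower in the pellet, with 159, 136 and 124 CPM there and 273, 302 and 264 CPM in the egg cytosol (-1.0 ± 0.0906). The deposited animal-vegetal classes, labelled as those of Sindelka et al., give the tdrd6.L transcript as animal. Its oocyte log2 fold change of pellet over cytosol was 0.33. The class of velo1.L is vegetal, and its oocyte value was 2.83. The kinesin adaptor sybu.L was called at a small fold change (0.39, edgeR adjusted p = 9.7e-04). Its homeolog sybu.S (0.21, edgeR adjusted p = 0.15) and the reticulon rtn3.S (0.13, edgeR adjusted p = 0.40) were not called. Of the transcripts with a deposited animal-vegetal class, 12 of 26 extremely vegetal ones were higher and 5 lower (median 0.31). The extremely animal class had 225 of 286 higher and 18 lower (median 0.79), set against 34.4% and 32.4% over all transcripts. The animal determinant foxi2.S was at 1.72, while sox11.S, a neural transcription factor, was at -1.45.

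**Figure D3:**
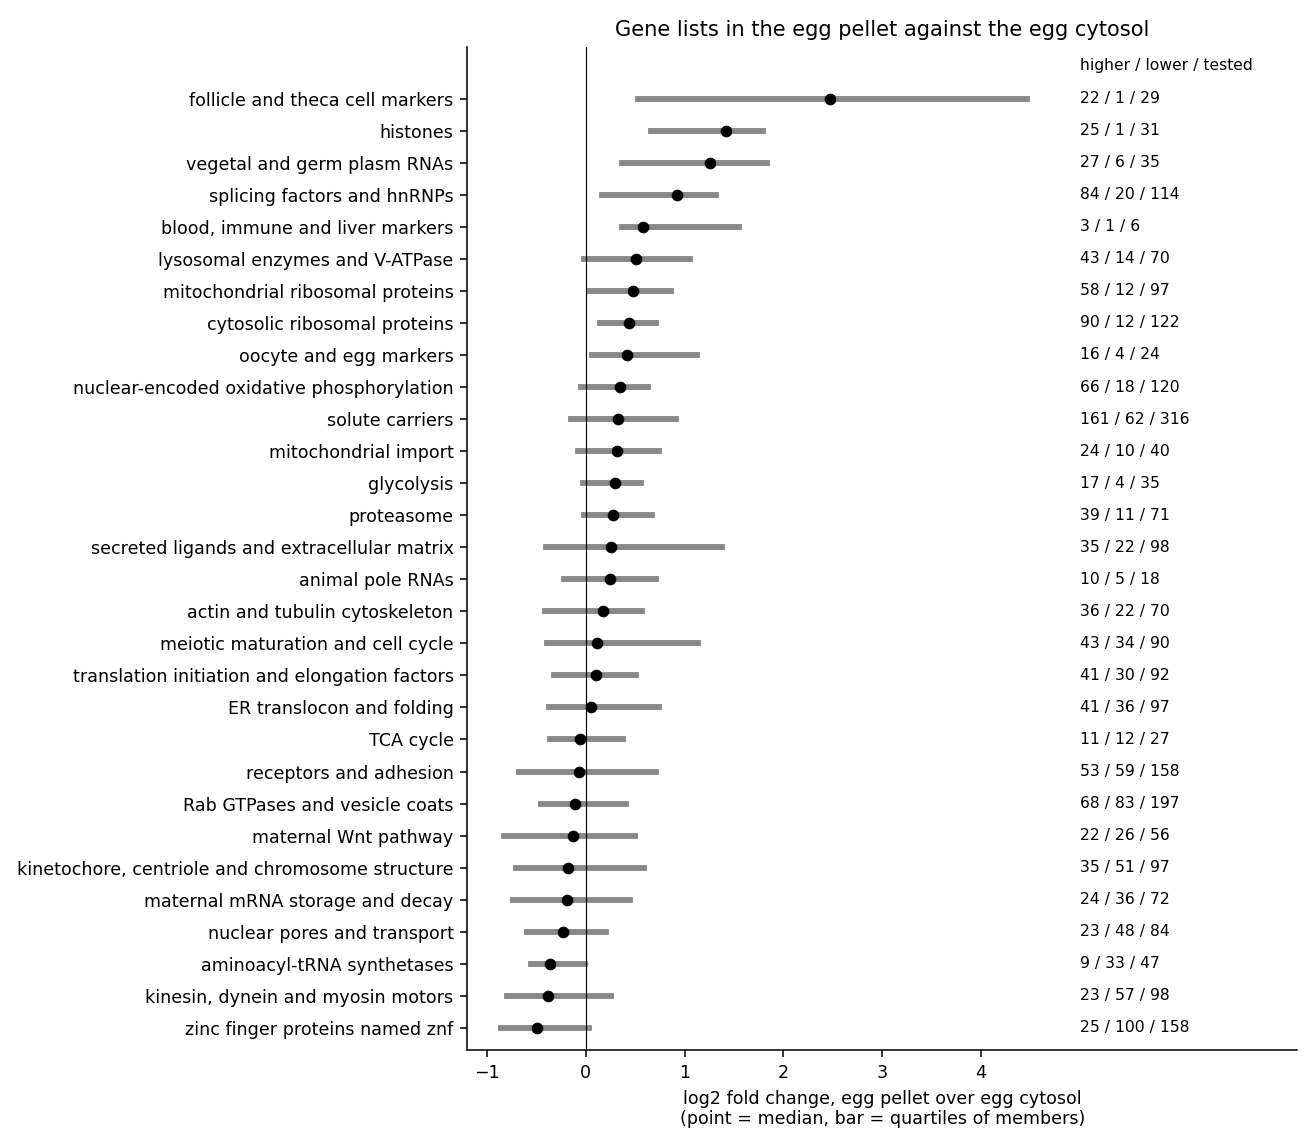
Gene lists ordered by the median log2 fold change, egg pellet over egg cytosol, of their tested transcripts (points; bars are quartiles), with the numbers of transcripts higher, lower and tested on the right. Follicle and theca cell markers, histones, vegetal and germ plasm RNAs and splicing factors stand at the top and zinc finger proteins at the bottom.

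Markers of the follicle layers were mostly higher in the pellet relative to the typical transcript. Of 47 listed follicle and theca cell transcripts the 29 that passed the filter on low counts were tested; pellet libraries alone can satisfy that filter, so their counts are a description. In all, 22 were higher and 1 lower, with a median of 2.47, beside 34.4% higher and 32.4% lower over all tested transcripts. With spike-in scaling 13 were higher and 11 lower (median 0.53). On attomolar values 10 were higher and 13 lower (median -0.11), so the direction of the list depends on the scale. Every other list except thrombospondins had a negative median with spike-in scaling. Among them were histones (-0.56), vegetal and germ plasm RNAs (-0.73) and splicing factors (-1.07). A sum was made over 14 transcripts taken as follicle markers. It was 217 to 244 CPM in egg pellet libraries and 52.8 to 55.1 CPM in egg cytosol libraries. The largest member of the pellet sums was cyp17a1.L, with 119, 124 and 130 CPM there and 20.2, 19.6 and 22.1 CPM in the egg cytosol. Its log2 fold change of egg pellet over egg ER was 0.16, against 2.81 for hsd3b1.L. Another member, vim.L, had 43.8, 41.6 and 39.9 CPM in the egg pellet and 27.2, 31.2 and 29.1 CPM in the egg cytosol. The sum thus mixes unlike members, and whether its cyp17a1.L and vim.L came from follicle cells was not tested. Of the 14, 6 had at least 3 counts in all 6 libraries and none was at 0 in all pellet libraries. The collagens col1a1, col1a2 and col3a1 had at most 5 counts in any library. The steroid dehydrogenase hsd3b1.L had 37.8, 60.2 and 42.8 CPM in the egg pellet and 1.22, 0.82 and 0.658 CPM in the egg cytosol (log2 fold change 5.69 ± 0.229). Pellet libraries were all far above the cytosol. These bulk libraries are fractions of pooled eggs, not samples of separate cell types. Whether such transcripts in the pellet came from follicle cells or from egg RNA that sediments was not tested.

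Transcripts far higher in the pellet than in the cytosol made a short group with matrix and adhesion genes in it. With at least 30 CPM in the pellet and a log2 fold change of 5 or more over the cytosol there were 16 transcripts. The cutoff was chosen after values were seen and took no account of the egg ER. Thrombospondins, secreted matrix proteins, were prominent: thbs2.L had 213, 271 and 268 CPM in the egg pellet, 3.76, 2.28 and 3.19 CPM in the egg cytosol and 20.8, 18.4 and 18.0 CPM in the egg ER (6.32 ± 0.241 over cytosol, edgeR adjusted p = 9.2e-15). In the same group were thbs1.S (5.88), the integrin subunit itga2.L (7.02), N-cadherin cdh2.L (6.88), the secreted crispld2.L (5.82) and the endothelial claudin cldn5.L (5.09). The follicle marker hsd3b1.L (5.69) was a member of this group as well. Members without a gene symbol are not named here. By the authors' deposited percentages the pellet share of thbs2.L was 89.9, 83.6 and 82.8%, against 3.91, 5.35 and 6.17% in the cytosol. That of cldn5.L was lower, at 77.3, 64.2 and 62.2%, against 7.87, 8.28 and 11.7% in the cytosol. The summed CPM of the transcripts taken as follicle markers, with cyp17a1.L the largest, was likewise higher in the egg pellet than in the egg cytosol. Whether the other markers and these transcripts are linked was not tested. Nor was their part in the result, or in the values of the membrane and matrix mRNAs above. In oocytes the log2 fold changes of pellet over cytosol were 0.14 for ctsv.L, 0.67 for cldn6.1.L and -1.69 for fn1.S. They were 2.82 for selenop1.L and 4.08 for slc34a2.S. Those of cyp17a1.L, hsd3b1.L and thbs2.L were 1.17, 4.74 and 5.58. These members were picked, and the sets were not compared by a test.

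Ribosomal and mitochondrial protein mRNAs leaned upward by small steps, set against 34.4% higher and 32.4% lower over all tested transcripts. Cytosolic ribosomal proteins had 90 of 122 transcripts higher and 12 lower with a median of only 0.44, and the example rps7.S had 79.6 ± 9.15 CPM in the egg pellet and 35.5 ± 1.41 CPM in the egg cytosol (SD, n = 3; log2 fold change 1.17). Mitochondrial ribosomal proteins had 58 of 97 higher and 12 lower (median 0.48), and nuclear-encoded oxidative phosphorylation had 66 of 120 higher and 18 lower (median 0.35). Within oxidative phosphorylation the ATP synthase coupling factor atp5pf.S went the other way (-1.01). Glycolysis enzymes had 17 of 35 higher and 4 lower (median 0.30), but gapdh.S, a glycolytic dehydrogenase, was lower, with 125, 86.2 and 96.8 CPM in the egg pellet and 293, 257 and 290 CPM in the egg cytosol (-1.45 ± 0.0965). Its libraries did not overlap. Median lengths were 1342 nucleotides for cytosolic ribosomal proteins, 1863 for mitochondrial ribosomal proteins and 1428 for oxidative phosphorylation. The glycolysis list was longer, at 3066.

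Some lists were mainly lower in the pellet, where 32.4% of all tested transcripts were lower and 34.4% higher. Zinc finger proteins named znf had 100 of 158 transcripts lower and 25 higher (median -0.49), with znf335.S at -1.36. Aminoacyl-tRNA synthetases, the enzymes that charge tRNAs, had 33 of 47 lower and 9 higher (median -0.36), with iars.L at -0.89. Kinesin, dynein and myosin motors had 57 of 98 lower and 23 higher (median -0.38), and nuclear pore and transport proteins had 48 of 84 lower and 23 higher (median -0.23). Their median lengths were 5858, 4846, 7026 and 6184 nucleotides. The mRNA storage and decay factors also had more lower than higher members (24 of 72 higher, 36 lower, median -0.19). Medians nearer to the typical transcript were those of Rab GTPases and vesicle coats (68 of 197 higher, 83 lower, median -0.11) and the maternal Wnt pathway (22 of 56 higher, 26 lower, median -0.13). So were those of the TCA cycle (11 of 27 higher, 12 lower, median -0.06) and translation factors (41 of 92 higher, 30 lower, median 0.10). The actin and tubulin cytoskeleton had 36 of 70 higher and 22 lower (median 0.17). The proteasome (39 of 71 higher, 11 lower), mitochondrial import (24 of 40 higher, 10 lower), animal pole RNAs (10 of 18 higher, 5 lower), oocyte and egg markers (16 of 24 higher, 4 lower) and blood, immune and liver markers (3 of 6 tested higher, 1 lower) had more higher than lower members.

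The lowest abundant named transcripts were, with 1 exception, very long. They were prr12.L and prr12.S, kiaa0232.L, casp8ap2.L, ankrd12.S and ankrd11.L, the histone methyltransferase kmt2c.L, the centrosomal cep350.S and the formin fhdc1.L, with transcripts of 9626 (fhdc1.L) to 34059 nucleotides (kmt2c.L) and log2 fold changes of -1.79 (prr12.L) to -1.63 (fhdc1.L). For kmt2c.L the egg pellet had 73.4, 48.9 and 59.6 CPM and the egg cytosol 215, 193 and 190 CPM. The exception was parp2.L, which encodes a DNA-damage-activated polymerase of ADP-ribose and whose transcript has 5801 nucleotides. It had 77.3, 50.7 and 71.6 CPM in the egg pellet, against 505, 427 and 521 CPM in the egg cytosol and 94.4, 90.3 and 81.3 CPM in the egg ER, a log2 fold change of -2.86 ± 0.144 (edgeR adjusted p = 7.0e-13). By the authors' deposited percentages 4.21, 1.46 and 1.68% of its copies were in the pellet and 91.6, 92.9 and 94.0% in the cytosol.

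The median log2 fold change of pellet over cytosol fell as transcript length rose. In 5 bins of transcript length with like numbers of transcripts the median log2 fold change was 0.39 for transcripts of 155 to 2084 nucleotides, 0.26 for 2085 to 3386, 0.04 for 3387 to 4767, -0.14 for 4768 to 7017 and -0.44 for 7018 to 193001. The shares called higher were 44.9, 45.8, 35.2, 27.0 and 19% from the shortest to the longest bin, and the shares called lower were 13.1, 18.5, 30.5, 42.5 and 57.6%. Median length was 3244 nucleotides for transcripts called higher, 5686.5 for those called lower and 7364 for those lower by at least 2-fold. In oocytes the same bins had medians of 0.49, 0.27, 0.04, -0.15 and -0.33. For egg ER over egg cytosol the medians were 0.12, 0.1, -0.01, -0.09 and -0.23. The part of length in the gene lists above was not tested.

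**Figure D4:**
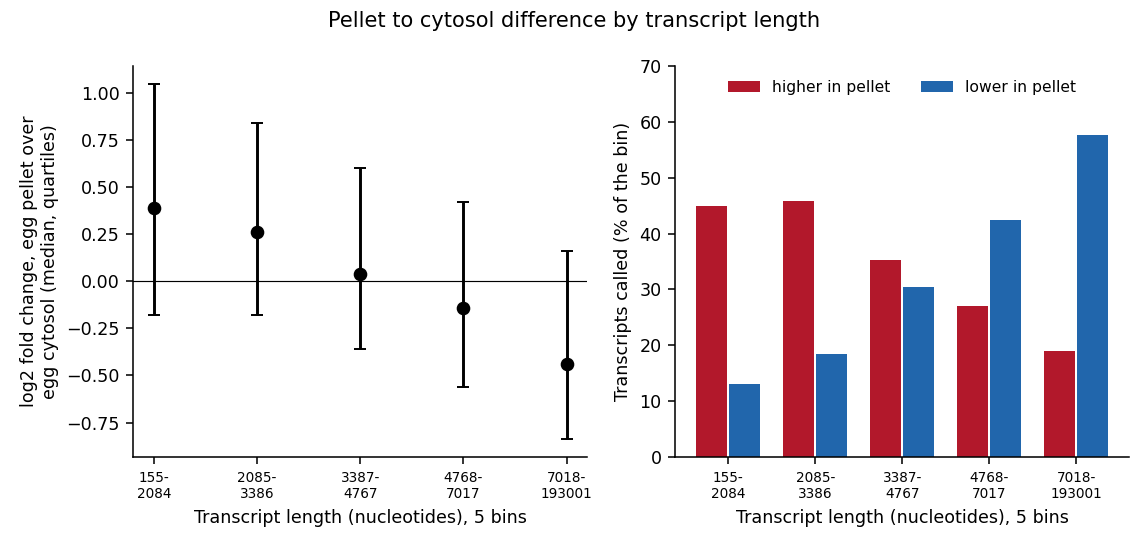
Left, median and quartiles of the log2 fold change, egg pellet over egg cytosol, in 5 bins of transcript length (nucleotides on the x axis); right, the percentage of each bin that was called higher (red) or lower (blue) in the pellet. Medians run from 0.39 in the shortest to -0.44 in the longest bin.

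Homeologs, the L and S copies kept from the 2 ancestral genomes of this frog, mostly had like values. Across 1714 pairs of tested, abundant homeologs the log2 fold changes correlated at r = 0.786 (Pearson, a description across genes, which are not independent replicates; near-identical copies can share reads), and 1356 pairs had the same sign. In 162 of the 1293 pairs in which both were called, the homeologs went opposite ways. Among the widest differences were those in parp2 (-2.86 for L, -0.38 for S), psap (0.43 for L, 2.74 for S), wbp11, a splicing factor (-0.61 for L, 1.62 for S), and ctr9, a subunit of the Paf1 elongation complex (1.59 for L, -0.44 for S).

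A few abundant transcripts in the pellet were mainly ER transcripts. The model ccdc50.L (gene47265, 571 nucleotides) had 2390, 2450 and 3610 CPM in the egg pellet, 699, 262 and 242 CPM in the egg cytosol and 49900, 33100 and 33500 CPM in the egg ER. An unnamed locus, LOC108705792, had 2700 ± 542 CPM in the egg pellet and 233 ± 137 CPM in the egg cytosol (SD, n = 3). Their log2 fold changes, pellet over cytosol, were 2.81 and 3.54, and pellet over ER -3.78 and -3.20. Whether reads of these short models come from the named gene was not examined.

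Whether the pellet to cytosol difference was the same in eggs and oocytes was tested directly, as the egg log2 fold change minus the oocyte one. It was larger in eggs for 6150 transcripts (23.7%) and smaller for 6081 (23.4%), with the 2 fold changes sharing no library. By at least 2-fold it was larger for 2048 (7.9%) and smaller for 1963 (7.57%). With spike-in scaling, which moved the median of this difference to -0.22, 1465 were larger and 3205 smaller.

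Lists of membrane, secreted and lysosomal proteins varied in this stage difference, which was larger in eggs for 23.7% and smaller for 23.4% of all transcripts. Of the lysosomal list 18 transcripts were larger and 24 smaller, of the translocon list 33 and 38, and of the secreted and matrix list 21 and 20, whereas solute carriers had 115 larger and 51 smaller, and receptors and adhesion proteins 47 and 18. Several of the transcripts highest in the egg pellet had a larger pellet excess in eggs than in oocytes. They were chosen by their egg fold change or its adjusted p. That fold change is part of the stage difference, so the choice itself favours larger values. The stage difference was 3.97 ± 0.11 for ctsv.L, 3.07 for ctsb.L, 3.13 for cldn6.1.S, 3.23 for cldn6.1.L, 2.81 for cldn7.L and 3.04 for plcb3.L, each called by edgeR. The oocyte log2 fold changes of these 6 transcripts were -0.08 to 0.79. For fn1.S it was 3.39 ± 0.0952: oocytes had 238, 199 and 212 CPM in the pellet and 701, 669 and 730 CPM in the cytosol, the opposite order to eggs. For eif2ak3.S it was 3.34, with 143, 126 and 139 CPM in the oocyte pellet and 304, 314 and 322 CPM in the oocyte cytosol. The transporter slc34a2.S (0.45, edgeR adjusted p = 0.46) and selenop1.L (0.91, edgeR adjusted p = 0.086) were not called, and had oocyte log2 fold changes of 4.08 and 2.82.

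Lists of nuclear and cell division proteins also varied, beside 23.7% larger and 23.4% smaller in eggs over all transcripts. Of the splicing list 87 transcripts had a larger and 10 a smaller difference in eggs, with an oocyte median of 0.12, and of the histone list 19 were larger and 2 smaller (oocyte median 0.28). The cell cycle list had 47 larger and 28 smaller, and the kinetochore, centriole and chromosome list 46 and 19. Nuclear pore and transport proteins had 25 larger and 44 smaller, and motors 23 and 33. In oocytes the h2afx.L transcript gene13554 had 2010, 1770 and 1780 CPM in the pellet and 4190, 3740 and 3720 CPM in the cytosol, so its order was reversed (stage difference 2.45 ± 0.137). The stage difference was 1.52 for ccnb1.S, 1.57 for ccnb1.L, 2.50 for ccnb2.L, 3.08 for cep152.L and 3.43 for stil.L, but aurka.S, at 1.56 in oocytes, was not called (-0.17, edgeR adjusted p = 0.27). Oocyte stil.L had 158, 140 and 140 CPM in the pellet and 521, 453 and 508 CPM in the cytosol.

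Germ plasm and vegetal mRNAs mostly had a smaller difference in eggs, which was so for 23.4% of all transcripts, with 23.7% larger. Of 35 tested, 30 had a smaller pellet excess in eggs and 3 a larger one, against an oocyte median of 3.01. The difference was -1.69 for pgat.L, -1.97 for ddx25.L, -2.67 for nanos1.L, -3.29 for dazl.L and -3.38 for grip2.L, which kept a pellet excess in eggs, and -3.83 for velo1.L, -4.95 for rtn3.S, -5.47 for sybu.L and -5.71 for sybu.S, which did not or hardly did. In eggs the 3 pellet values of sybu.L, 80.4, 74.5 and 66.3 CPM, lay just above the cytosol values of 53.5, 58.2 and 56.7 CPM. In oocytes it had 192, 223 and 220 CPM in the pellet and 4.39, 2.83 and 3.71 CPM in the cytosol, far apart. Cytosolic ribosomal protein mRNAs and oxidative phosphorylation mRNAs also had smaller differences in eggs, for 108 of 122 and 101 of 120 transcripts, with oocyte medians of 1.35 and 1.28.

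The lowest transcripts of the egg pellet also had negative oocyte values, of -2.59 (parp2.L) to -0.12 (fhdc1.L). Being chosen by a low egg fold change favours negative stage differences among them. Stage differences were called for kiaa0232.L (-0.84), casp8ap2.L (-0.79), prr12.S (-0.41), kmt2c.L (-0.99), ankrd11.L (-0.94), cep350.S (-0.63) and fhdc1.L (-1.52), and not for ankrd12.S (-0.07), prr12.L (-0.39) and parp2.L (-0.28, edgeR adjusted p = 0.26). In oocytes fhdc1.L had 88.0, 91.0 and 91.3 CPM in the pellet and 103, 92.7 and 97.6 CPM in the cytosol.

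**Figure D5:**
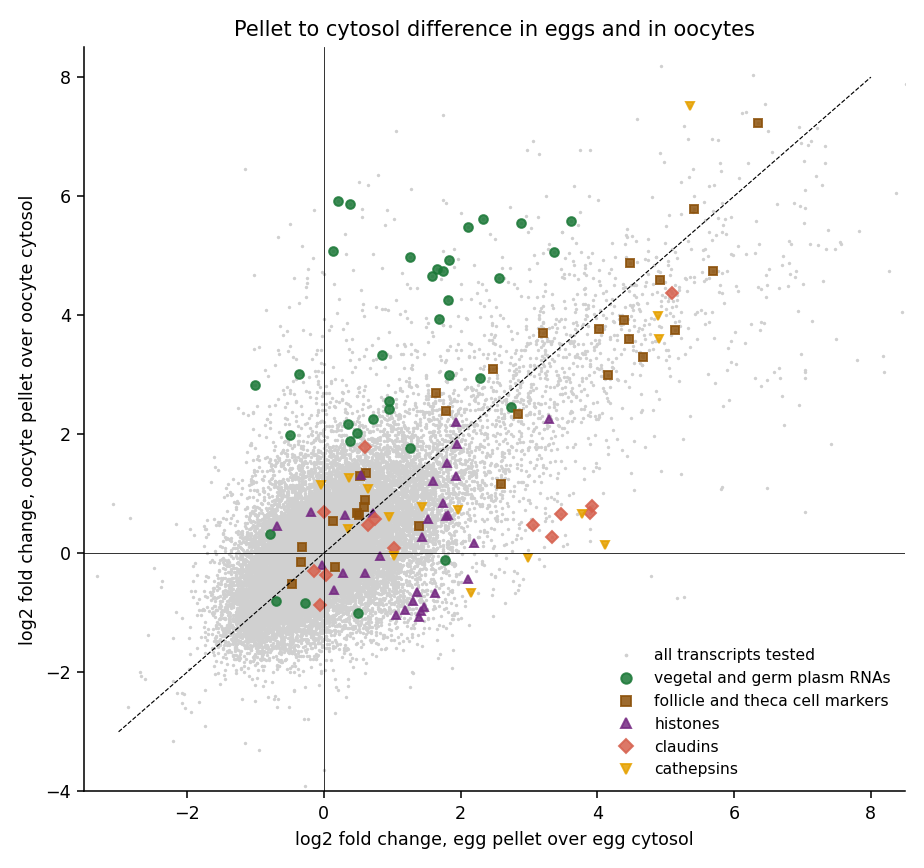
Each grey point is a transcript, with its log2 fold change of egg pellet over egg cytosol on the x axis and of oocyte pellet over oocyte cytosol on the y axis; coloured symbols mark 5 gene lists, the dashed line marks equal values and 26 transcripts lie outside the plot. Most vegetal and germ plasm RNAs lie above the line, several claudins and cathepsins lie below it near 0 on the oocyte axis, and follicle markers lie near it.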

How the data were processed

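The authors extracted RNA from the fractions of 4 cells after adding 5 spike-in RNAs, depleted ribosomal RNA and made stranded libraries, per the labels. The submitters' processing notes name bcl2fastq 2.20 for demultiplexing and kallisto 0.46.2 for quantification. The deposited estimated counts and TPM cover 51032 transcripts, spike-ins included; no source used here names their transcript set or genome build. Neither coordinates nor sequences are printed. Per the labels, the authors turned TPM into attomolar values, a spike-in calibrated signal. The deposited percent values split a transcript's attomolar total over the 3 fractions. Another 30 columns of the series tables were not used.

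Estimated counts were rounded, spike-ins and 1 transcript without a name were left out, and filterByExpr by group left 25938 transcripts. The main test was glmQLFTest after glmQLFit and TMM scaling (edgeR 4.0.16, R 4.3.3), in 1 fit of 18 libraries and 6 groups with 12 residual degrees of freedom, with calls made below 0.05 after Benjamini-Hochberg adjustment. DESeq2 1.42.0 and limma 3.58.1 (log2 of attomolar values plus 0.001) were alternatives. Scripts were tested on simulated data. The precision of a level is set by 3 libraries a group, of at least 27708406 counts in egg pellet and egg cytosol and 23151601 in egg ER.

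The members and lists were chosen with earlier results of these data known, and 5 lists (claudins, cathepsins, tetraspanins, TMEM proteins, thrombospondins) after values were seen. Symbols are those of the deposited table; L and S homeologs count separately. Named transcripts are, of those that were called, carry a symbol, average a log2 CPM of 5 or more and do not overlap between the 6 libraries, the 10 with the highest and the 10 with the lowest fold change. To these come from each list the 2 called members of smallest adjusted p in either direction, a fixed panel (gdf1, vegt, wnt11b, trim36, velo1, dazl, nanos1, ddx25, pgat, plin2, sybu, grip2, rtn3, mos, ccnb1, aurka, wee2, hspa5, gapdh and actb), the 10 highest pellet TPM and the 5 homeolog pairs that differ most, of which 1 is not reported here. List and panel members were selected for print with their values known. So were cldn6.2.L, cldn6.2.S, epcam.L, epcam.S, ctsb.S, h1foo.S, ccnb5.L, cdc20.L, atp6v1a.S and the transcripts with a log2 fold change of 5 or more. The list of mitochondrial genome transcripts matched 0 symbols.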

Additional observations from a re-analysis of the deposited data

Results flagged for a closer look

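What drew attention in each result here is a pellet to cytosol difference that was not the same in eggs and oocytes, by the edgeR test of the difference itself (egg log2 fold change minus oocyte log2 fold change, 3 libraries in each of 4 groups). It was called as larger in eggs for 6150 transcripts and as smaller for 6081. Among named transcripts with a larger value in eggs, it was 3.97 for ctsv.L, 3.43 for stil.L, 3.39 for fn1.S, 3.34 for eif2ak3.S, 3.23 for cldn6.1.L, 3.13 for cldn6.1.S, 3.11 for ctsv.S, 3.08 for cep152.L, 3.07 for ctsb.L, 3.04 for plcb3.L, 2.81 for cldn7.L, 2.50 for ccnb2.L, 2.45 for h2afx.L (gene13554), 1.57 for ccnb1.L and 1.52 for ccnb1.S. Among germ plasm and vegetal transcripts it was -5.71 for sybu.S, -5.47 for sybu.L, -4.95 for rtn3.S, -3.83 for velo1.L, -3.38 for grip2.L, -3.29 for dazl.L, -2.67 for nanos1.L, -1.97 for ddx25.L and -1.69 for pgat.L. For long transcripts low in the egg pellet it was -1.52 for fhdc1.L, -0.99 for kmt2c.L, -0.94 for ankrd11.L, -0.84 for kiaa0232.L, -0.79 for casp8ap2.L, -0.63 for cep350.S and -0.41 for prr12.S. Transcripts named for a high or low egg fold change were chosen by a part of this difference, which favours large values in the same direction.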

How the results depend on the processing

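The counts of higher and lower transcripts stayed within 1.5 times of 8919 and 8414 with relative log expression factors, DESeq2 (8864 and 8177), no filter on low counts, the 6 egg libraries alone, and each library left out in turn (8444 to 9037 higher and 8039 to 8124 lower; by at least 2-fold 3996 to 4533 and 1301 to 1705). The attomolar ratio of pellet to cytosol was 0.203 to 0.31 with a replicate number left out, 0.329 by TPM over spike-in TPM and 0.237 without the 20 most abundant transcripts.

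With the replicate block in the fit, 9171 transcripts were higher and 8683 lower, and the stage difference was larger for 6561 and smaller for 6473. Whether the numbers pair the samples is not settled: deviations of same-numbered pellet and cytosol libraries correlated at 0.145, 0.1 and 0.4633, and those of other numbers at -0.5029 to 0.2373, so not every library correlated best with its own number.

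The spike-in scales changed the calls. With spike-in scaling 829 transcripts were higher and 22629 lower (by at least 2-fold 745 and 21303), and the stage difference was larger for 1465 and smaller for 3205 (1231 larger by at least 2-fold). With limma on attomolar values 584 were higher and 23707 lower (549 and 23229). Log2 fold changes that turned negative under spike-in scaling were those of foxi2.S (-0.29), ccnb2.L (-0.15), rps7.S (-0.82), fn1.S (-0.27), fzd7.L (-0.49), celsr2.L (-0.33), stil.L (-0.32), cdc7.L (-0.22), hist2h3d.L (-0.26), sf3b3.S (-0.43), snrpd3.S (-0.17), ccnb1.L (-0.63), rtn3.S (-1.80), trim36.L (-0.26), aurka.S (-0.59), ccnb1.S (-0.49), mos.L (-1.80), sybu.L (-1.55), sybu.S (-1.72), wnt11b.L (-0.72), vegt.L (-0.12), h2afx.L (-0.62), hist2h3c.L (-0.96), psap.L (-1.54), ctr9.L (-0.36), wbp11.S (-0.38), h1foo.S (-0.22), cdc20.L (-0.30), ccnb5.L (-0.34) and the 4 models of gdf1.S (-0.11, -0.38, -0.23, -0.31). On attomolar values they were those of foxi2.S (-0.57), ccnb2.L (-0.35), rps7.S (-1.22), eif2ak3.S (-0.23), fn1.S (-0.67), fzd7.L (-0.89), celsr2.L (-0.89), stil.L (-0.65), ndc1.S (-0.17), cdc7.L (-0.58), hist2h3d.L (-0.51), sf3b3.S (-1.0), snrpd3.S (-0.45), grip2.L (-0.27), ccnb1.L (-0.85), rtn3.S (-2.36), trim36.L (-0.66), aurka.S (-0.87), ccnb1.S (-0.69), mos.L (-2.16), sybu.L (-2.07), dazl.L (-0.01), sybu.S (-2.31), wnt11b.L (-1.08), vegt.L (-0.46), h2afx.L (-0.52), hist2h3c.L (-0.99), psap.L (-1.98), ctr9.L (-0.86), wbp11.S (-0.76), h1foo.S (-0.42), cdc20.L (-0.55), ctsb.S (-0.09), ccnb5.L (-0.55) and the 4 models of gdf1.S (-0.34, -0.71, -0.50, -0.55). By its construction spike-in scaling moves all transcripts down by a like step; on attomolar values the step varies between transcripts. Away from these scales, mos.L was not called with no filter (0.11) or without cytosol replicate 2 (0.12), and sybu.S was called with the 6 egg libraries alone (0.22); the cause was not tested. The 3 libraries a group limit the precision of these levels.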

Other observations

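The lists made after values were seen hold further membrane proteins. For comparison, 34.4% of all tested transcripts were higher in the egg pellet and 32.4% lower. Tetraspanins, membrane organisers with 4 passes, had 16 of 27 tested transcripts higher in the egg pellet than in the egg cytosol and 2 lower, with a median log2 fold change of 0.30. Proteins named TMEM had 124 of 224 higher and 42 lower, with a median of 0.37. Thrombospondins had 4 of 4 tested transcripts higher and 0 lower, and their summed level was 419.1 to 537.3 CPM in egg pellet libraries, against 5.635 to 9.272 CPM in egg cytosol and 37.6 to 45.39 CPM in egg ER libraries. Summed claudin levels were 1186 to 1343 CPM in the egg pellet and 146 to 180 CPM in the egg cytosol, with 884.3 to 1148 CPM in the egg ER. For cathepsins the sums were 1903 to 1984 CPM in the egg pellet and 526.9 to 557.1 CPM in the egg cytosol, with 2031 to 2199 CPM in the egg ER.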
